A study of Mus musculus with 18 samples.

Results

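A run of 9 neighbouring genes on mouse chromosome 19 was followed in C57BL/6 mice, in the rectus femoris of the thigh: Hectd2, Tnks2, Fgfbp3, Btaf1, Cpeb3, Ide, Kif11, Hhex and Exoc6. They were chosen by their position and by the measured levels of Ide and Btaf1 in these same 18 libraries. All 9 symbols were found among 25604 rows of the deposited table, of which 24431 were gene rows. The members' differences between arms are therefore a description. Where their calls in a fit over all genes are counted, the count stands beside the share of all genes called and supports nothing about the members. Bulk RNA sequencing gave 6 libraries of young untreated mice aged 8 months, 6 of old untreated mice aged 19 months and 6 of old mice aged 19 months given 3TC, with 3 females and 3 males in each arm. 3TC (lamivudine), a nucleoside analogue that blocks reverse transcription, was given at 2 mg per mL of drinking water for 6 weeks. All mice were of the same strain, and the labels name no substrain, supplier or cohort, so a difference of that kind between the young and the old mice cannot be told apart from age.

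Ide encodes insulin-degrading enzyme, a zinc metalloprotease that cleaves insulin, glucagon and amyloid beta. Btaf1 encodes an ATPase that removes TATA-binding protein from DNA and so governs its turnover at promoters. Fgfbp3 encodes a secreted protein that binds fibroblast growth factors and releases them from the matrix. As background on this region, a copy number gain that includes Ide and Fgfbp3 has been described as segregating among C57BL/6J colonies. Copy number was not measured in the files used here, and its part in the values below was not tested.

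The genes lie within 1 stretch of chromosome 19 in GRCm38, the build also called mm10, with positions from GENCODE M21. Fgfbp3 (chr19:36917550-36919615, minus strand) and Btaf1 (chr19:36926079-37012752, plus strand) face away from each other, with 6463 bases between their starts. Cpeb3 (chr19:37021291-37208601, minus strand) lies between Btaf1 and Ide (chr19:37268743-37337852, minus strand). Hectd2 (chr19:36554639-36621135) and Tnks2 (chr19:36834232-36893477), both on the plus strand, come before Fgfbp3. Kif11 (chr19:37376403-37421859), Hhex (chr19:37434810-37440731) and Exoc6 (chr19:37550418-37684059) follow Ide on the plus strand.

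The promoters of the 3 members with higher levels in old muscle are shown so that they can be read side by side. RefSeq entries on GRCm38.p6 matched 8 of the 9 members. Each window runs 5′ to 3′ on the strand of its gene, from 250 bases before to 50 bases after the RefSeq start: chr19:36919550-36919849 on the minus strand for Fgfbp3, chr19:36925829-36926128 on the plus strand for Btaf1 and chr19:37334495-37334794 on the minus strand for Ide. Capitals mark matches on either strand to the TATA box letters TATAAA, the CCAAT box letters CCAAT, the GC box letters GGGCGG and the E-box letters CACGTG.
Fgfbp3: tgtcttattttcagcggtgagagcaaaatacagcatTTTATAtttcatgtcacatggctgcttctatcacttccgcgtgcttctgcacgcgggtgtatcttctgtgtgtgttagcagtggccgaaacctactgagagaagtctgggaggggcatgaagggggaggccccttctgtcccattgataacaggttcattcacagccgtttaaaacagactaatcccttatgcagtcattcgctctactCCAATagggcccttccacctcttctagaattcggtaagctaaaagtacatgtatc
Btaf1: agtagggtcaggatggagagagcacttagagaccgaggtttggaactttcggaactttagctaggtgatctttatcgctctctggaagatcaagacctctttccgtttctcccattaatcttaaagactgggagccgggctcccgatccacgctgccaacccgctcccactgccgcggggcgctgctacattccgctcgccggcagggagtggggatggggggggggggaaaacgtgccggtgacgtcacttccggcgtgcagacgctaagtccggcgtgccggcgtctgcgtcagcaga
Ide: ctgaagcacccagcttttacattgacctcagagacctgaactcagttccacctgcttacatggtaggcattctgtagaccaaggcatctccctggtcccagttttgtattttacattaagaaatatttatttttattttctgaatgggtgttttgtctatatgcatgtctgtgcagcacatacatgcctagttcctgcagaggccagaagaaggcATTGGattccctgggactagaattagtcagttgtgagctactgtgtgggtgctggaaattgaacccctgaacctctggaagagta

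No motif was found in all 3 windows. Fgfbp3 held 1 TATAAA match, read on the opposite strand, and 1 CCAAT match, and Ide held 1 CCAAT match, read on the opposite strand. The Btaf1 window held none of the 4. Among 32851 RefSeq promoter windows, TATAAA was present in 13.6%, CCAAT in 37.4%, GGGCGG in 35.7% and CACGTG in 7.2%. GC content was 44.0% with 0 CpG for Ide, 46.7% with 9 CpG for Fgfbp3 and 60% with 25 CpG for Btaf1, beside medians of 52.7% and 7 CpG over all windows. The Ide window lies inside the GENCODE span of the gene, around a RefSeq start 3931 bases upstream of the start of the GENCODE transcript Ide-201 but downstream of the most upstream GENCODE start, so the 2 annotations place the Ide promoter differently.

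Each library held between 64217468 and 85396139 recovered reads, and the authors had scaled all libraries to the same total. A normalised count is a read count divided by a factor of its library. The sum of 8 muscle fibre markers was high in every library, from 6744330 to 11762400 normalised counts. Sums of hepatocyte markers differed widely between libraries, from 1418 to 336832, and touch Hhex below. The sum of 6 macrophage markers ran from 2225 to 11987 in young muscle, 6524 to 18913 in old untreated and 4633 to 10943 with 3TC, and that of 5 adipocyte markers from 10120 to 48889, 17312 to 147295 and 17713 to 53329. No marker of either list was at 0 in any library, the arms overlapped in both sums, and their part in the levels of the 9 genes was not tested. In bulk tissue, fewer cells of a type and less RNA per cell cannot be told apart. The labels number the libraries of an arm without tying each to a mouse, so p-values measure the spread between libraries, which may be technical in part.

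Ide was about 2-fold higher in both old arms than in young muscle, and no old library fell within the young range. In young females the Ide level was 6866, 6889 and 6909 normalised counts, and in young males it was 6992, 4724 and 6101. In old untreated females it was 11892, 12723 and 12064, and in old untreated males it was 15985, 13345 and 11996. In old 3TC females it was 12558, 13550 and 12073, and in old 3TC males it was 11539, 15022 and 13388. The lowest old library, an old 3TC male, was 1.65 times the highest young library, so young and old did not overlap, whereas the old arms covered nearly the same range.

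The mean level of Ide was 6413 ± 890 in young muscle, 13001 ± 1563 in old untreated and 13022 ± 1244 with 3TC (SD, n = 6 each). The log2 difference of old untreated from young was 1.02 ± 0.10 (SE), a 2.03-fold higher level, with a 95% interval from 0.81 to 1.24. Old 3TC differed from young by 1.03 ± 0.10. Between the old arms the log2 difference was 0.00 ± 0.10, with an interval from -0.21 to 0.22, which spans 0.862-fold to 1.17-fold. A median-of-ratios scaling, which corrects for the RNA makeup of each library, gave 0.86 for old untreated minus young and 0.14 for old 3TC minus old untreated, and left every old library at or above 10429 and every young one at or below 7842.

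Btaf1 was also about 2-fold higher in old muscle. In young females the Btaf1 level was 705, 904 and 891 normalised counts, and in young males it was 925, 830 and 1003. In old untreated females it was 1557, 2118 and 1849, and in old untreated males it was 2501, 1943 and 1811. In old 3TC females it was 1507, 1921 and 1396, and in old 3TC males it was 1528, 2202 and 1919. The lowest old library was 1.39 times the highest young one, so again the 12 old and 6 young libraries stood apart.

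The arm means of Btaf1 were 876 ± 101 in young muscle, 1963 ± 321 in old untreated and 1745 ± 315 with 3TC (SD, n = 6 each). Old untreated minus young was 1.16 ± 0.12 on the log2 scale (SE), or 2.23-fold, with a 95% interval from 0.91 to 1.40. Old 3TC minus young was 0.98 ± 0.12. Old 3TC minus old untreated was -0.17 ± 0.12, with an interval from -0.42 to 0.07, beside a median of -0.15 over all genes tested.

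Fgfbp3, the neighbour that starts beside Btaf1, had a similar difference with more spread at a lower level. In young females the Fgfbp3 level was 123, 129 and 147 normalised counts, and in young males it was 83.4, 98.0 and 146. In old untreated females it was 138, 346 and 284, and in old untreated males it was 229, 246 and 254. In old 3TC females it was 243, 325 and 177, and in old 3TC males it was 279, 254 and 288. A single old library, old untreated female 1, fell below the highest young library, and the 6 old 3TC libraries were all above the young ones.

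Fgfbp3 averaged 121 ± 25.6 in young muscle, 249 ± 68.4 in old untreated and 261 ± 50.004 with 3TC (SD, n = 6 each). Its log2 difference of old untreated from young was 1.02 ± 0.21 (SE), or 2.02-fold, with a 95% interval from 0.57 to 1.46. Old 3TC minus young was 1.11 ± 0.21, and old 3TC minus old untreated was 0.09 ± 0.21, with an interval from -0.35 to 0.54.

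**Figure D1:**
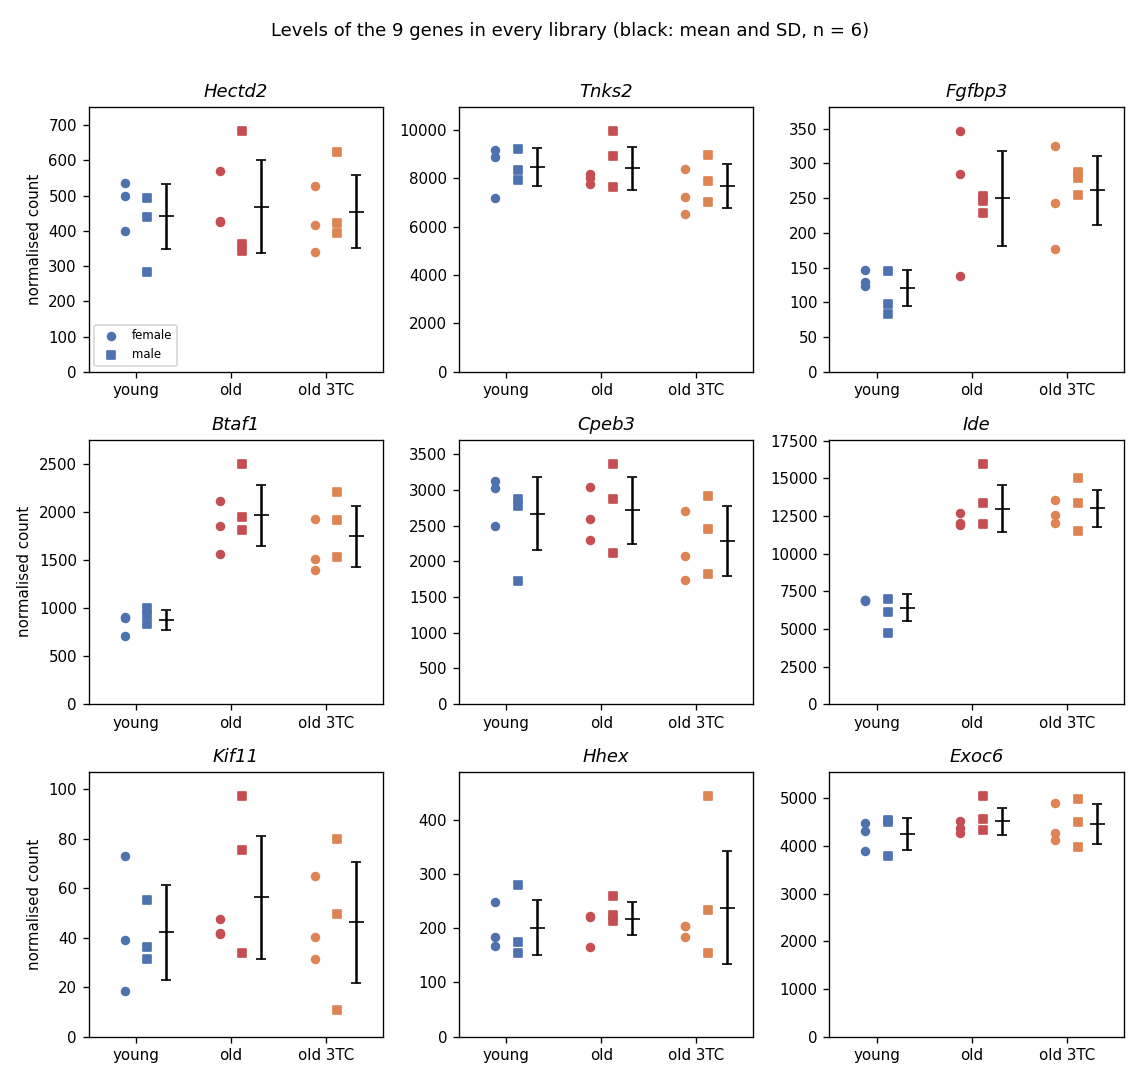
Normalised count of each of the 9 genes (linear axis from 0) in every young, old untreated (old) and old 3TC library, with circles for females, squares for males and black bars for mean and SD (n = 6). Ide and Btaf1 have no overlap between young and old libraries, Fgfbp3 overlaps through 1 old library at 138, and the other 6 genes overlap broadly.

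The other 6 members had overlapping levels in all arms. Hectd2, a HECT-type ubiquitin ligase, averaged 441 ± 91.4 in young muscle, 468 ± 132 in old untreated and 454 ± 103 with 3TC (SD, n = 6 each). Tnks2 encodes tankyrase 2, a poly-ADP-ribose polymerase that marks axin for degradation. Tnks2 averaged 8447 ± 792 in young muscle, 8405 ± 878 in old untreated and 7660 ± 914 with 3TC. Cpeb3, an RNA-binding protein that governs translation through cytoplasmic polyadenylation elements, averaged 2669 ± 509, 2716 ± 468 and 2285 ± 487 in the same order. These 3 genes differed between old untreated and young by 0.07 ± 0.19 for Hectd2, -0.01 ± 0.09 for Tnks2 and 0.03 ± 0.16 for Cpeb3 on the log2 scale (SE). Under median-of-ratios scaling those differences were -0.09, -0.17 and -0.13, so the sign for Hectd2 and Cpeb3 rests on the scaling.

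Kif11 encodes the mitotic spindle motor Eg5 and was close to the lower limit of the fit, at 18.6 to 73.1 normalised counts in young, 33.8 to 97.3 in old untreated and 10.6 to 80.1 with 3TC. Its log2 difference of old untreated from young was 0.43 ± 0.44 (SE), no larger than its error, and 0.27 under median-of-ratios scaling. Exoc6, a subunit of the exocyst complex that tethers secretory vesicles to the plasma membrane, averaged 4255 ± 334 in young muscle, 4519 ± 283 in old untreated and 4457 ± 414 with 3TC (SD, n = 6 each). Its log2 difference was 0.09 ± 0.08 (SE) as deposited and -0.08 under median-of-ratios scaling. For old 3TC minus old untreated, the log2 differences of these 6 genes lay between -0.41 ± 0.44 for Kif11 and 0.05 ± 0.21 for Hhex. Under median-of-ratios scaling Hhex was at 0.19, Exoc6 at 0.12 and Hectd2 at 0.11 in this comparison. With 1 library left out Hhex ran from -0.14 to 0.18. The signs of Hhex, Exoc6 and Hectd2 are thus not settled. Kif11 was at -0.28 under that scaling and ran from -0.62 to -0.02 with 1 library left out. It stayed below 0, but its difference of -0.41 was smaller than its error of 0.44.

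Hhex, a homeobox factor of liver, endothelial and blood lineages, averaged 201 ± 50.5 in young muscle, 218 ± 29.97 in old untreated and 238 ± 104 with 3TC (SD, n = 6 each). The log2 difference of old untreated from young was 0.14 ± 0.21 (SE) as deposited and -0.03 under median-of-ratios scaling. Old 3TC male 2 reached 444 normalised counts, and the other 17 libraries lay between 154 and 280. That library also had the highest sum of 16 hepatocyte markers. That sum ranged from 3569 to 167539 in young muscle, 5442 to 42442 in old untreated and 1418 to 336832 with 3TC. No hepatocyte marker was at 0 throughout an arm, and 9 of the 16 were at 0 in at least 1 library. In young female 8, with the next highest hepatocyte sum of 167539, Hhex was 248. Young male 8, with the next highest Hhex level of 280, had the lowest hepatocyte sum of its arm, 3569. The sum of 8 endothelial markers in old 3TC male 2 was 22599, in an arm from 19458 to 25800. The part of these markers in the Hhex level was not tested.

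**Figure D2:**
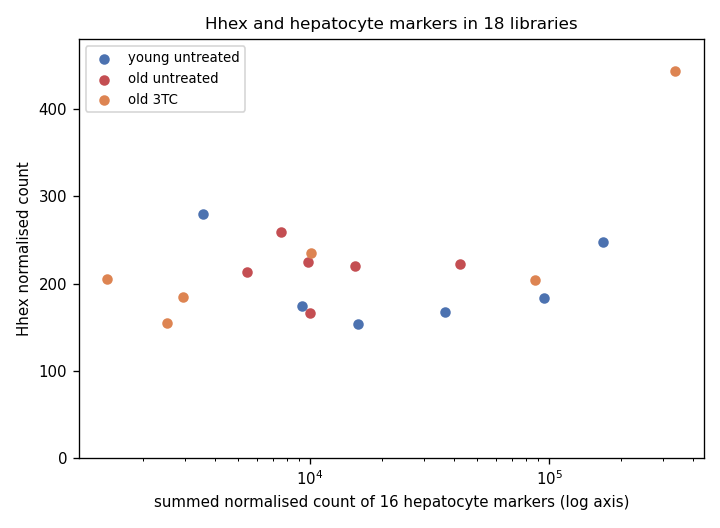
Hhex level in each of the 18 libraries (vertical, normalised count, linear from 0) against the summed level of 16 hepatocyte markers (horizontal, normalised count, log axis), coloured by arm. Old 3TC male 2 lies at 444 and 336832, apart from the other 17 libraries.

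Old untreated male 1 and old 3TC male 2 held the highest levels of several members at once. Old untreated male 1 had the highest level of its arm for 6 of the 9 genes, and old 3TC male 2 for 8 of the 9. A ratio taken within each library removes such a shared shift. The ratio of Ide to the summed level of the other 6 members ran from 0.321 to 0.460 in young muscle, 0.740 to 0.827 in old untreated and 0.811 to 0.926 with 3TC. For Btaf1 it ran from 0.0415 to 0.0638, 0.0969 to 0.135 and 0.107 to 0.123 in the same order. For Fgfbp3 it ran from 0.00486 to 0.00977, 0.0086 to 0.022 and 0.0136 to 0.0209. Young and old were again apart for Ide and Btaf1 and overlapped for Fgfbp3. Ide and Btaf1 kept a similar proportion to each other, with an Ide to Btaf1 ratio of 7.41 ± 1.44 in young muscle, 6.68 ± 0.551 in old untreated and 7.56 ± 0.763 with 3TC (SD, n = 6 each).

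**Figure D3:**
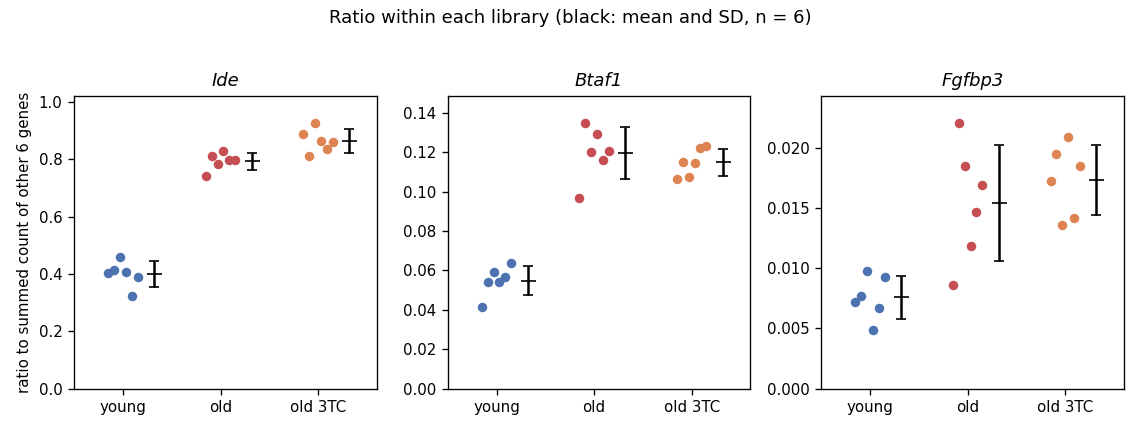
Ratio of the normalised count of Ide, Btaf1 or Fgfbp3 to the summed count of Hectd2, Tnks2, Cpeb3, Kif11, Hhex and Exoc6 in each library (linear axis from 0), with black bars for mean and SD (n = 6). For Ide the young libraries reach 0.460 and the old ones start at 0.740, and for Btaf1 these values are 0.0638 and 0.0969.

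In a limma fit of all 16060 genes with a mean of at least 10 normalised counts, which all 9 members passed, Ide, Btaf1 and Fgfbp3 were called at an adjusted p under 0.05 for old untreated against young. The share of all genes called was 0.367%, or 59 genes. That count was 4 with edgeR and 221 with DESeq2, and with 1 library left out it ran from 2 (without old untreated male 1 or young male 1) to 608 (without young male 8). The Fgfbp3 call held in 6 of the 18 fits that each left out 1 library and was present with DESeq2 and absent with edgeR. For old 3TC against young, Ide and Btaf1 were the only 2 genes called, beside 0.0125% of all genes. For old 3TC against old untreated, limma called 0 of the 9 and 0% of all genes, 1633 genes had an unadjusted p under 0.05, and edgeR and DESeq2 each called 0 genes as well. Nothing is read from the members' counts, because the same contrasts chose them, and the first 2 comparisons share the 6 young libraries.

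All 12 old libraries were above all 6 young ones for 22 genes, 0.137% of those tested, among them Ide and Btaf1. Ide had the largest ratio of lowest old to highest young library among the 22, 1.65, followed by Ppp1r32 at 1.56 with a mean level of only 15.4, and Btaf1 at 1.39. Ppp1r32 is on the same chromosome but starts far away, at base 10474235. The median log2 difference of old untreated from young was 0.16 over all genes and 0.14 over the 9 members, and that of old 3TC from young was 0.03 over all genes and 0.07 over the members.

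The difference did not run evenly along the chromosome. From one end of the stretch to the other, old untreated minus young was 0.07 for Hectd2, -0.01 for Tnks2, 1.02 for Fgfbp3, 1.16 for Btaf1, 0.03 for Cpeb3, 1.02 for Ide, 0.43 for Kif11, 0.14 for Hhex and 0.09 for Exoc6 on the log2 scale, where those of Hectd2, Cpeb3, Hhex and Exoc6 are below 0 under median-of-ratios scaling. Cpeb3 thus had a value near 0 between 2 genes with values above 1 as deposited. Under median-of-ratios scaling the values were 0.99 for Btaf1, -0.13 for Cpeb3 and 0.86 for Ide. A330032B11Rik, a gene inside Cpeb3 on the opposite strand, differed by 0.19 ± 0.37 (SE), and Ppp1r3c, between Hectd2 and Tnks2, by -0.23 ± 0.31. The 10 tested genes before Hectd2 and the 10 after Exoc6 had log2 differences from -0.44 to 1.47 with a median of 0.20. limma, edgeR and DESeq2 called 0 of these 20 and the 2 genes between members in any of the 3 comparisons, with 4, 4 and 2 of the 22 at an unadjusted limma p under 0.05 for old untreated against young, old 3TC against old untreated and old 3TC against young. These are 18.2%, 18.2% and 9.09% of the 22, beside 22%, 10.2% and 9.32% of all genes tested. None of the 20 had all old libraries above all young ones.

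**Figure D4:**
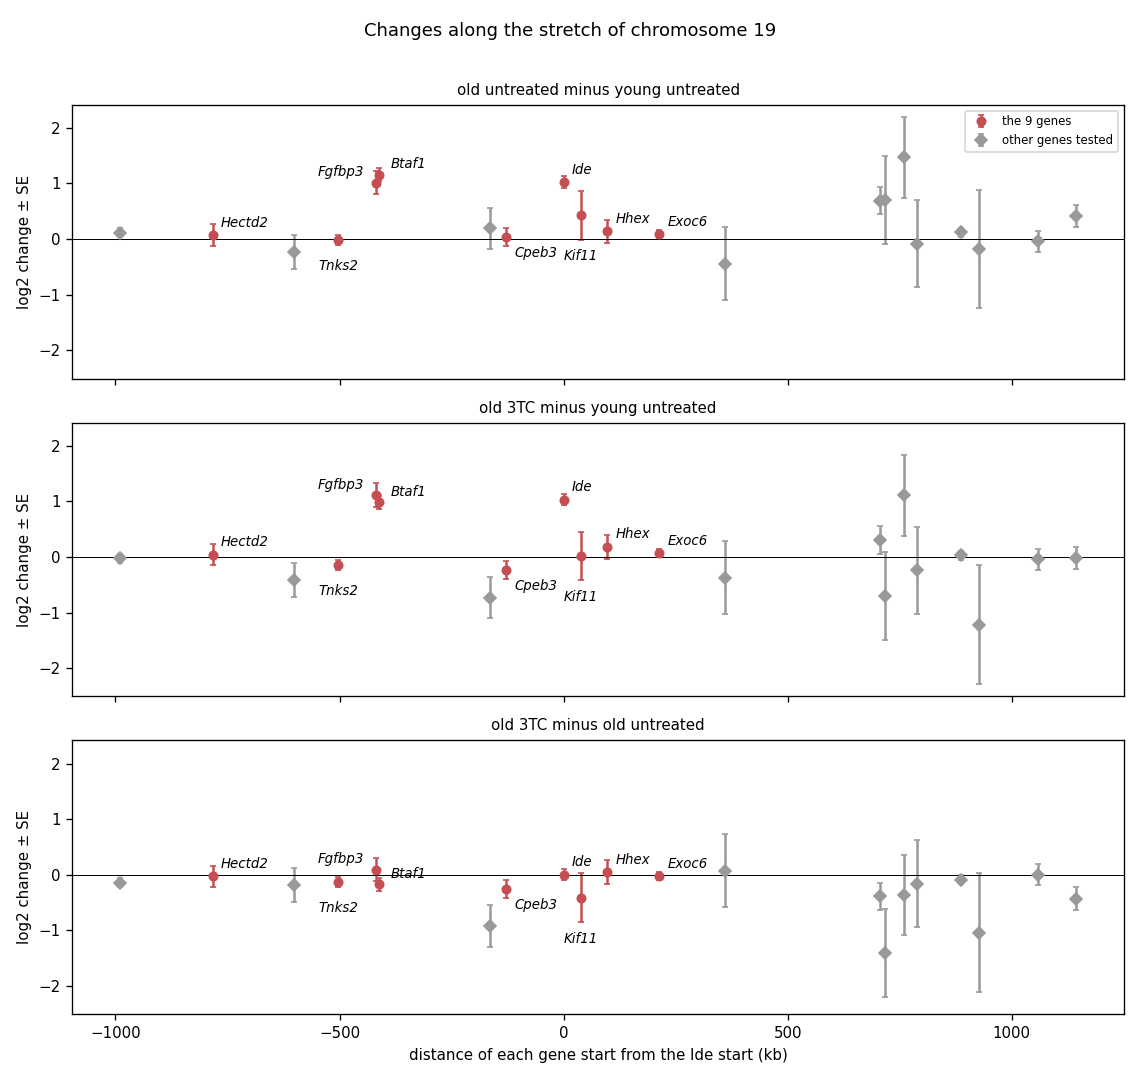
Log2 change ± SE (vertical) of the 9 genes (circles, named) and other tested genes (diamonds) against the distance of the gene start from the Ide start (horizontal, kb), for old untreated minus young (top), old 3TC minus young (middle) and old 3TC minus old untreated (bottom). Fgfbp3, Btaf1 and Ide stand near 1 in the top and middle panels while Cpeb3 between them is at 0.03 and -0.23.

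Another gene of this interval, March5, a mitochondrial ubiquitin ligase, is annotated beside Cpeb3 on the side of Ide, but no row carries its symbol. Some rows stand as dates, as a spreadsheet writes such symbols, and a single row read as 5 March, a date that only March5 among the annotated symbols would give. That row held 4773 ± 408 normalised counts in young, 5185 ± 418 in old untreated and 4944 ± 672 with 3TC (SD, n = 6 each), ranges that overlapped. It was left out of the tests.

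Levels can be compared between genes only per kilobase of exon. On that scale Ide was the highest of the 9 over all libraries, at 1440 normalised counts per kb, followed by Exoc6 at 1245 and Tnks2 at 785. Cpeb3 stood at 345, Btaf1 at 149, Fgfbp3 at 119, Hectd2 at 50.1, Hhex at 43.3 and Kif11 at 6.46. In young muscle alone Exoc6 was above Ide, at 1201 against 854 per kb, and in old untreated muscle Ide was above Exoc6, at 1732 against 1275. The young values of Ide and Tnks2, 854 and 812 per kb, lay within the spread between libraries. So did the overall values of Btaf1 and Fgfbp3 and of Hectd2 and Hhex, which are neighbours in this order. With 3TC the order was the same as in old untreated muscle, at 1735 for Ide against 1258 for Exoc6. The overall values of Ide and Exoc6 average arms with opposite orders. Their order over all libraries is that of the old arms and not that of young muscle.

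The sexes showed differences of the same sign for Ide, Btaf1 and Fgfbp3. Hectd2, Tnks2 and Cpeb3 were lower in old untreated females and higher in old untreated males than in young, each by less than its SE. For Ide, old untreated minus young was 0.83 ± 0.14 in females and 1.22 ± 0.14 in males on the log2 scale (SE), and the difference between the sexes was 0.39 ± 0.20. For Btaf1 the values were 1.14 ± 0.18 in females and 1.17 ± 0.18 in males. limma called 0 of the 9 members for males against females, where the Btaf1 difference of 0.18 ± 0.10 was the largest in size, and 0 for the interaction of sex with either age or 3TC, and no member had an unadjusted p under 0.05 in these 3 tests. The other tools were not run on them, and the share of all genes called in them is not given here. Nothing is read from these counts of members.

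The genes with levels most like those of Ide were ranked by the root mean square difference of centred log2 levels over the 18 libraries, where 0 would be an identical pattern. The set was chosen by the levels of Ide and Btaf1 in these libraries, so their ranks for each other are a description and support nothing. Ide itself varied by 0.51 about its mean on this scale. Btaf1 was the nearest of all genes, at 0.19, followed by 3632451O06Rik at 0.27, Figf at 0.30, Skap2 at 0.32 and Plekhb1 at 0.33. Fgfbp3 ranked 7th of all genes, at 0.34. The other members ranked from 2607 for Exoc6 to 12662 for Kif11. For Btaf1, which varied by 0.55, the nearest were Ide at 0.19, Fgfbp3 at 0.32, Man2c1os at 0.33, Tmem43 at 0.34 and Skap2 at 0.34.

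The nearest genes changed once differences between arms and sexes were taken out. With the mean of each arm and sex removed, none of the 5 genes nearest to Ide stayed among its 5 nearest. Btaf1 then ranked 1210 for Ide, and Ide ranked 302 for Btaf1, among the 16060 genes tested. Their difference was then 0.13, where Ide itself varied by 0.14 and Btaf1 by 0.18. The source of the likeness was not tested. Plekhb1, at 6755 ± 1201 in young and 9449 ± 1972 in old untreated muscle (SD, n = 6 each), had overlapping arms, unlike Ide. Relative to their own young means, the genes nearer to Ide overlapped less. The lowest old minus the highest young level was -1.97 normalised counts for 3632451O06Rik, at a young mean of 212. It was -3.09 for Figf at 231, -28.5 for Skap2 at 384 and -1206 for Plekhb1 at 6755. These gaps are in counts, so their sizes also follow the level of each gene.

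**Figure D5:**
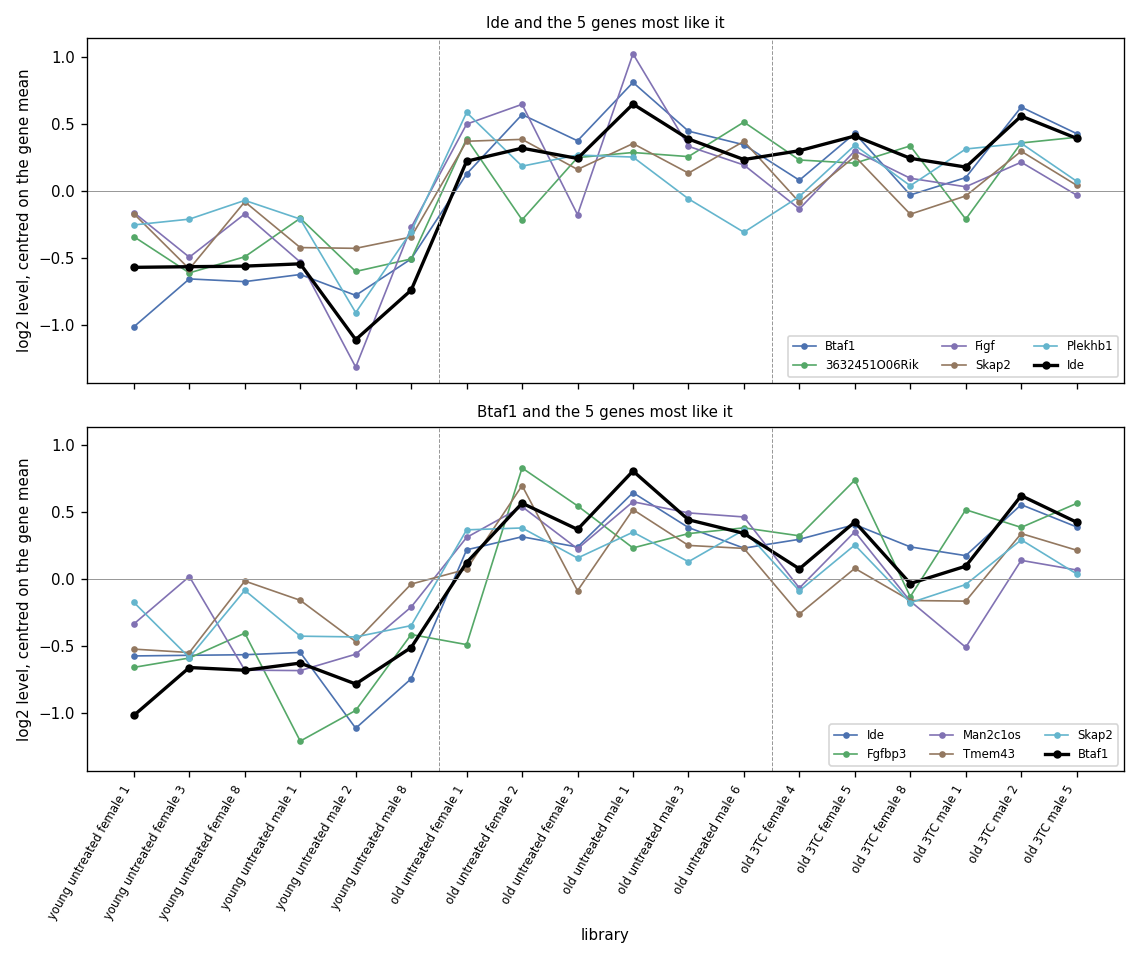
Log2 level centred on each gene's mean (vertical) in the 18 libraries (horizontal, dashed lines between young, old untreated and old 3TC), for Ide with its 5 nearest genes (top) and Btaf1 with its 5 nearest genes (bottom), the named gene in black. All 6 young libraries lie below 0 and all 12 old ones above 0 for Ide.

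Genes related in function to the members were read from the same fit. The choice of members did not use them, but the lists were drawn up with earlier results of these data known. Of 88 listed genes, 85 were found and 84 tested, and limma called 0 in either direction in each of the 3 comparisons, with 22, 12 and 6 genes at an unadjusted p under 0.05 for old untreated against young, old 3TC against old untreated and old 3TC against young. These are 26.2%, 14.3% and 7.14% of the 84, beside the 22%, 10.2% and 9.32% of all genes. edgeR called 0 as well, and DESeq2 called Taf7, lower in old untreated than in young muscle by a log2 difference of -0.44 (DESeq2 adjusted p = 0.00852), and Fgfbp1, higher in old 3TC than in young muscle by 0.80 (DESeq2 adjusted p = 0.0152). Of all 16060 genes tested, DESeq2 called 221 for old untreated against young and 120 for old 3TC against young. Nothing is read from the calls of Taf7 and Fgfbp1. Under median-of-ratios scaling the median of the 84 moved from 0.16 to -0.00 for old untreated minus young. Among 13 proteases that cleave insulin or amyloid beta or are kin to Ide, Ece2, an endothelin-converting enzyme, had the smallest p for old untreated against young, with a log2 difference of 0.60 ± 0.15 (SE, limma adjusted p = 0.0625). The median of these 13 was 0.25, beside 0.16 for all genes. Nrd1, which encodes nardilysin of the same peptidase family as Ide, had the smallest p of this list for old 3TC against young, at 0.18 ± 0.07 (limma adjusted p = 0.457).

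Among 20 genes of TATA-binding protein and its partners, the median was 0.14 and Brf1, a subunit of the RNA polymerase III initiation factor, came nearest to the threshold at 0.36 ± 0.09 (limma adjusted p = 0.0652). Among 8 genes of fibroblast growth factor binding and signalling, the median was 0.52. Fgf7, a growth factor ligand, differed by 0.47 ± 0.15 (limma adjusted p = 0.101), and Fgfbp1, a paralogue of Fgfbp3, differed between old 3TC and young by 0.82 ± 0.19 (limma adjusted p = 0.229). For the 8 exocyst subunits other than Exoc6, the median was 0.13, with Exoc3 at 0.19 ± 0.07 (limma adjusted p = 0.155). The 7 tankyrase and axin partners had a median of 0.14, with Apc at 0.29 ± 0.11 (limma adjusted p = 0.155).

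The remaining lists also held no called gene. Cpeb2 led the 3 other CPEB genes at 0.53 ± 0.22 (limma adjusted p = 0.171), and Hectd3 led 6 HECT ligases at 0.27 ± 0.10 (limma adjusted p = 0.147). Lmo2 led 7 endothelial and blood transcription factors at 0.45 ± 0.20 (limma adjusted p = 0.191). Of 12 mitosis genes tested, Aurkb had the smallest p, at 1.15 ± 0.51 (limma adjusted p = 0.197). For old 3TC against old untreated, the smallest p of each list belonged to Ece2, Taf2, Exoc6b, Apc, Cpeb4, Nusap1, Lmo2, Fgfr4 and Huwe1, with limma adjusted p from 0.481 to 0.575.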

How the data were processed

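Bulk RNA-seq of rectus femoris was analysed from 18 libraries, 6 in each of 3 arms. Alignment was to mm10 with STAR, per the submitters' processing notes. Which tool counted reads, on which annotation and with which strand setting, is not given in the sources used here. Normalised counts per gene (a signal, not whole counts) were deposited, scaled by the authors so that every library has the same total. Whole reads were recovered in all 18 libraries from the steps of the values, within a tolerance of 0.001; in old untreated female 1 and young male 1 a read was worth nearly 1 normalised count, so the step is hard to tell from plain whole numbers. Of the rows, 1146 name transposable elements and 27 are spreadsheet dates (0.0628% to 0.0831% of counts), which were left out of tests. One column of a young female carries number 2 where the sample label gives 1.

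The main fit was limma 3.58.1 in R 4.3.3 on log2(normalised count + 1) with arm and sex, over 16060 genes with a mean of at least 10, with Benjamini-Hochberg adjustment over all of them. Fold changes are on that scale. edgeR 4.0.16 and DESeq2 1.42.0 on recovered reads, median-of-ratios scaling, other filters, pseudocounts and covariates, and leaving out each library were alternatives. The fit was tested on simulated data. The members, gene lists and tests were chosen with earlier results of these data known. The text names all 9 members, the 5 genes most like Ide and Btaf1, and the listed gene with the smallest p in each list. Of the gene rows, 23350 matched GENCODE M21 symbols. Without a stated strand setting, reads of antisense or overlapping genes (A330032B11Rik and March5 with Cpeb3, Hectd2os with Hectd2, the pseudogene Rpl10-ps6 within Ide) cannot be told apart from those of the member. Each gene has 1 value, so parts of a gene cannot be seen.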

Additional observations from a re-analysis of the deposited data

Results flagged for a closer look

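The Ide level in old untreated male 1, 15985 normalised counts, lay far from the other 5 libraries of its arm, which ran from 11892 to 13345. The same library was highest in its arm for 6 of the 9 genes, and its ratio of Ide to the other 6 members was the highest of its arm as well, 0.827 in an arm that started at 0.740. The Hhex level in old 3TC male 2, 444.0 normalised counts, lay far from the other 5 of its arm, which ran from 155 to 234, and that library had the highest sum of hepatocyte markers. These are the 2 flags among 27 gene and arm groups checked, where chance flags about 1 in 20. The part of library makeup in either was not tested.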

How the results depend on the processing

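Among 756 alternative values for the members' changes, 9 moved by more than the spread between replicates and 0 reversed a called change, but 283 lay within 0.001 of the reported value, many because the alternative left that estimate as it was. For old untreated minus young, Exoc6 was -0.077 under median-of-ratios scaling, -0.077 with edgeR and -0.084 with DESeq2, and Tnks2 was -0.173, -0.174 and -0.181 in the same order. For old 3TC minus old untreated, Exoc6 was 0.117, 0.111 and 0.114. The log2 change of old untreated from young ran from 0.93 to 1.06 for Ide, 1.097 to 1.20 for Btaf1 and 0.91 to 1.19 for Fgfbp3 when each library was left out, and from 0.86 to 1.02, 0.99 to 1.26 and 0.84 to 1.02 over the other settings. The calls of Ide and Btaf1 in both comparisons with young were lost with the replicate block, and that of Fgfbp3 for old untreated against young was present in 3 of 10 other settings.

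The number of genes called for old untreated against young was 59 (57 higher, 2 lower), 24 (16 and 8) under median-of-ratios scaling, 4 with edgeR, 221 with DESeq2, 40 (12 and 28) with only the arms compared, 14 without a sex term, and 2 with edgeR without the 2 libraries whose step lay near 1, an alternative chosen after seeing the data. Leaving out 1 library gave 2 (without old untreated male 1 or young male 1) to 608 (without young male 8). For old 3TC against young it was 2, with 120 for DESeq2, 4 with only the arms compared and 2 to 16 with 1 library left out. With the replicate block, 0 genes were called, and the log2 change of old untreated from young was 1.01 ± 0.21 for Ide and 1.26 ± 0.19 for Btaf1 (SE). Deviations of 7 same-numbered pairs correlated between -0.0617 and 0.19, and 3 of 11 libraries were most like their own number. With so few pairs and no chance rate beside them, this measure cannot decide whether the numbers pair the libraries. The causes were not tested. The scaling, with a median shift of 0.16 over all genes, limits statements on members with small differences, and low counts limit Kif11.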
